A study of Arabidopsis thaliana with 18 samples.

Results

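A set of 10 calcium sensor genes of Arabidopsis was followed through roots and shoots of plants given lanthanum (La), ytterbium (Yb) or neither. They were CML24 (also called TCH2, AT5G37770), CML12 (TCH3, AT2G41100), CML23 (AT1G66400), CML9 (AT3G51920), CML37 (AT5G42380), CML38 (AT1G76650), CML39 (AT1G76640), CML40 (AT3G01830), CML41 (AT3G50770) and CML42 (AT4G20780). Taken by locus number, they are 10 of the 28991 genes in the tables. Wild-type Col-0 plants, 6 weeks old and grown in aerated hydroponics, spent 72 h in nutrient solution without phosphate, with LaCl3 or YbCl3 at 5 µM or with no rare earth. The control plants were therefore without phosphate as well. Each replicate pooled the roots or the shoots of 3 plants, and 3 replicates of 3 treatments in 2 organs gave 18 polyA RNA-seq libraries. Nothing in the labels tells if the pools of a treatment shared a container, so the p-values measure only the spread between these pools, which may be technical. Libraries held 12797264 to 16221846 counted reads in roots and 12442357 to 16345602 in shoots.

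Plants read calcium signals through proteins with EF hands, helix-loop-helix motifs that bind the ion and change shape. Calmodulins are the conserved form, and calmodulin-like proteins (CML) are a larger plant family that carries EF hands with no enzyme domain of its own. TCH2 and TCH3 were found as genes whose transcripts build up within minutes of touching a plant, and many CML transcripts are also raised by wounding, cold or microbes. Lanthanum ions are widely used in physiology as blockers of calcium channels.

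Values below are reads divided by the size factor of the library, a scale on which libraries of one organ can be compared. Roots and shoots were scaled separately, so a root value and a shoot value do not share a scale. Organ identity followed the labels: the summed value of 6 green tissue markers was 130 to 669 in root libraries and 397400 to 511700 in shoot libraries, and that of 5 root markers was 193.7 to 417.1 in shoots and 37840 to 60490 in roots. EXPA7, a root hair expansin, was at 0 in all shoot libraries.

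The members sit on chromosomes 1 to 5, and a pair of them, CML38 and CML39, are neighbours on the same strand of chromosome 1, 883 bases apart in the TAIR10.1 annotation. CML24 and CML23 are the closest in sequence, with 78.9% of aligned coding bases identical, followed by CML38 and CML39 with 72.4% and by CML37 and CML38 with 61.1%. Below are 250 bases upstream of the annotated start of CML24, CML23, CML38 and CML39 (RefSeq, TAIR10.1). The first pair is shown as the members closest in coding sequence, the second as neighbours whose root transcripts behaved differently. Capitals mark CGCG, the core of the sites bound by calmodulin-binding transcription activators, which reads alike on both strands. The windows are chr5:14999620-14999869, chr1:24771394-24771643, chr1:28768139-28768388 and chr1:28765867-28766116, all on the minus strand.
CML24: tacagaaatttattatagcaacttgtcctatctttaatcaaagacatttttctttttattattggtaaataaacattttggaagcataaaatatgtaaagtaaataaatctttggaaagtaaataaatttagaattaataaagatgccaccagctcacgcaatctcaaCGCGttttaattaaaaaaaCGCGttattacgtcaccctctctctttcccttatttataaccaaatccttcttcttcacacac
CML23: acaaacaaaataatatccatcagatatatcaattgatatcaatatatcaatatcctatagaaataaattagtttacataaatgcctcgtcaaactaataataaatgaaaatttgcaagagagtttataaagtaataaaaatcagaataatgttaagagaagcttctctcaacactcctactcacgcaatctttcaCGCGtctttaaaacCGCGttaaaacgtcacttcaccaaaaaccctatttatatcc
CML38: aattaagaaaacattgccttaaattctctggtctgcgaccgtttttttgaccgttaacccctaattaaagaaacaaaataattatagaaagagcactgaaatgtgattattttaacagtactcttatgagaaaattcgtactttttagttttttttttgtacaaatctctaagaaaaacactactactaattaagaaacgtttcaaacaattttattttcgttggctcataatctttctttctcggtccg
CML39: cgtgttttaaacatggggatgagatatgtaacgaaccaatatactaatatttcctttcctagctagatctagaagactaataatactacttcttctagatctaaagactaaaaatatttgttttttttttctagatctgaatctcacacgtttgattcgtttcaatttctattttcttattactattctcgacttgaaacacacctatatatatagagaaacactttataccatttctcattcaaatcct
CGCG occurred in the windows of 4 of 10 members: at 2 places in CML24, at 2 in CML23, and at 1 each in CML9 and CML40. Over all 27443 windows of 250 bases, 10.1% held it. In CML24 the copies lay 82 and 63 bases before the start, and in CML23 they lay 55 and 41 bases before it. TTGAC, the core of the W box read by WRKY factors, was searched on both strands and occurred in 5 of 10 members and in 44.9% of all windows. The G box CACGTG, the same on both strands, occurred in 0 of 10 and in 6.49%. Overlap between different motifs was not removed, and a match is a description of letters only.

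Levels per kilobase of coding sequence fell into tiers in control roots. CML9 (2432 ± 290, SD, n = 3) and CML12 (2266 ± 685) were highest and overlapped each other. CML42 (863 ± 167) and CML24 (834.4 ± 35.8) followed, then CML23 (409.4 ± 68.7) with CML38 (391.4 ± 102). CML41 (148.7 ± 9.08), CML37 (134 ± 35.7) and CML39 (116.5 ± 51.6) formed an overlapping group, and CML40 (46.94 ± 15.4) was lowest. In control shoots CML9 led alone (3409 ± 505), and CML24 (1108 ± 302) and CML12 (1090 ± 581) overlapped behind it. CML42, CML38, CML23, CML40, CML37 and CML41 then ranged from 286.2 down to 38.68 in their means, with neighbours in that order overlapping. CML39 was close to absent in shoots, at 0.7473 ± 1.29 per kilobase.

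La against control in roots moved 3 of 10 members past the threshold. CML41 rose, and CML39 and CML42 fell; the test was limma on log2(value + 0.5) with Benjamini-Hochberg adjustment over 22729 genes at 0.05. Across all genes tested 18.9% passed, 9.41% higher and 9.51% lower, so 3 of 10 is not far from the background. Fold changes below are on that log2 scale. The median over the 10 members was 0.34 against 0 over all genes. With single libraries left out it went from 0.16 without La 1 to 0.44 without control 2. La 1 was the library that stood apart in CML38 and low-oxygen genes. Fewer cells of a type and less RNA per cell cannot be told apart in these whole-organ samples.

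CML39, a gene linked to early seedling growth, had root values of 58.79, 29.88 and 79.13 in the controls. La roots gave 5.274, 11.36 and 4.8, from 5 to 13 reads each, and Yb roots gave 60.04, 51.62 and 46.07. Every La library lay below every control and every Yb library, while control and Yb overlapped. The La difference was -2.88 ± 0.41 (SE) on the log2 scale, 7.34-fold lower, with adjusted p = 0.00204. Yb differed from control by 0.01 ± 0.41 (adjusted p = 0.994). La lay below Yb by a difference of -2.89 ± 0.41 (adjusted p = 0.00954), the only member past the threshold between the elements in roots, where 6.45% of genes passed.

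CML38, next to CML39, is a stress granule protein known for its induction by low oxygen. Its root values were 146.4, 237.0 and 243.6 in controls, 703.6, 198.3 and 218.9 with La, and 209.7, 158.8 and 203.7 with Yb. A single library, La 1, stood above the other 8, which overlapped between groups. The La difference was 0.62 ± 0.47 (adjusted p = 0.415), and 0.03 without La 1 (adjusted p = 0.943). In the same library ADH1, alcohol dehydrogenase, was at 16690, against 249.7 to 681.2 in controls. ADH1 was at 755.7 and 1306 in the other La libraries and at 4043, 641.3 and 548.8 with Yb. In La 1, 4 of 5 low-oxygen genes (ADH1, PDC1, HB1, LBD41 and PCO1, chosen after the values were seen) were at their highest. Their summed value was 32820 in La 1, 2672 and 6797 in the other La libraries, 1192 to 3674 in controls and 2613 to 8739 with Yb. The next highest sums were in Yb 1 (8739) and La 3 (6797), where CML38 was at 209.7 and 218.9, within the range of the controls. Control 3 had the lowest sum (1192) and the highest CML38 value among controls (243.6). The part of low-oxygen genes in the CML38 value was not tested. Beyond the pair, AT1G76660 on the CML38 side rose with La in roots (0.40 ± 0.11, adjusted p = 0.0284, not refitted without single libraries), and AT1G76630 on the CML39 side differed by -0.01 ± 0.10 (adjusted p = 0.976).

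CML41, a protein of plasmodesmata that acts on callose during immune responses, was the member that rose in roots with both elements. Controls held 85.41, 94.61 and 95.58, La roots 223.6, 203.6 and 199.7, and Yb roots 209.7, 193.6 and 136.2. All treated libraries were above all controls, and the treatments overlapped each other. The La difference was 1.18 ± 0.16, 2.27-fold (adjusted p = 0.00165), and the Yb difference 0.94 ± 0.16, 1.92-fold (adjusted p = 0.0289). La minus Yb was 0.24 ± 0.16 (adjusted p = 0.415). The Yb call was lost without control 1, 2 or 3, Yb 1 or Yb 2 (adjusted p up to 0.141) and with the compared pair of groups fitted alone (adjusted p = 0.0631); over the 9 refits that left out a library the difference was 0.82 to 1.13. In roots with Yb 1 of 10 members passed, where 1.24% of all genes did.

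CML42, known in leaves for trichome branching and responses to feeding insects, was at 459.2, 606.5 and 425.5 in control roots. La roots held 340.7, 293.5 and 344.6, all below the controls, and Yb roots held 428.9, 333.6 and 509.9, which overlapped both. The La difference was -0.59 ± 0.17, 1.51-fold lower (adjusted p = 0.0377), and the Yb difference -0.23 ± 0.17 (adjusted p = 0.535). The La call is not firm: it was lost without control 1, control 2, La 1, La 2, La 3 or Yb 1, with adjusted p from 0.018 to 0.124 over 9 refits and differences from -0.70 to -0.44.

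**Figure D1:**
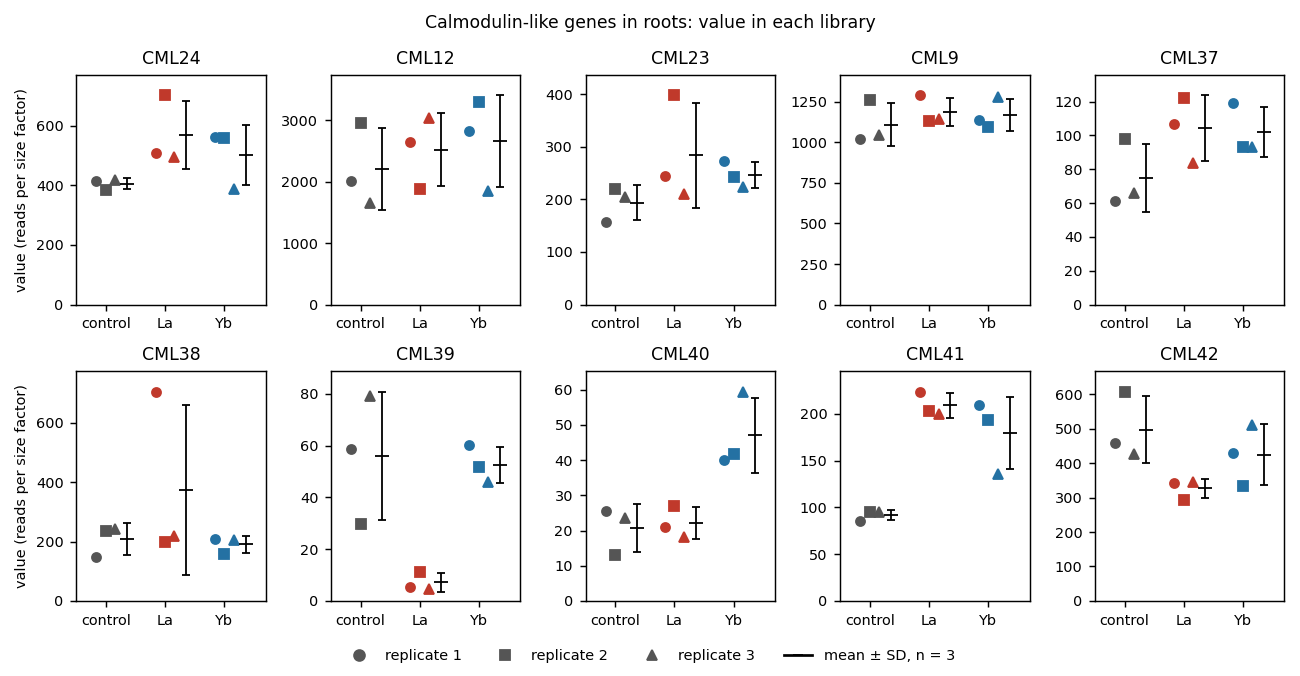
Value of each calmodulin-like gene in each of 9 root libraries (reads per size factor, linear axis from 0, scale set per gene), with symbols for replicate and bars for mean ± SD (n = 3). La libraries of CML39 sit between 4.8 and 11.36, below all others, and a single La library of CML38 reaches 703.6.

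The touch genes were less clear. CML24, linked to flowering time and ion stress, gave 414.8, 385.4 and 416.2 in control roots, 508.5, 701.5 and 495.3 with La, and 562.3, 558.9 and 386.0 with Yb. La libraries were all above controls, by 0.47 ± 0.17 (adjusted p = 0.0835 in limma and 0.0465 in DESeq2), and Yb overlapped controls at 0.29 ± 0.17 (adjusted p = 0.431). Its close relative CML23 ranged from 157.5 to 220.1 in controls, 209.3 to 397.5 with La and 224.2 to 272.6 with Yb, with differences of 0.50 ± 0.22 (adjusted p = 0.154) and 0.36 ± 0.22 (adjusted p = 0.468). CML12, which carries an unusual number of EF hands, spanned 1660 to 2953 in controls, 1877 to 3037 with La and 1849 to 3304 with Yb. CML9, known from salt and immune responses, had the narrowest relative spread of the 10, 1022 to 1289 over all 9 root libraries. Differences of CML12 and CML9 from control in roots were 0.08 to 0.27, with adjusted p from 0.534 to 0.739.

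CML37, known from jasmonate responses to feeding insects, was at 61.01 to 97.6 in control roots, 83.51 to 122.3 with La and 93.17 to 119.1 with Yb, and neither difference passed (0.49 ± 0.22, adjusted p = 0.148, and 0.46 ± 0.22, adjusted p = 0.317). CML40 had root values of 25.51, 12.95 and 23.64 in controls, 21.1, 27.08 and 18.24 with La, and 40.03, 41.7 and 59.38 with Yb. Yb libraries were above all others, a difference of 1.20 ± 0.32 from control (adjusted p = 0.103 in limma, 0.045 in DESeq2). La minus Yb was -1.07 ± 0.32 (adjusted p = 0.0732 in limma, 0.0399 in DESeq2). LYK2 overlaps CML40 on the other strand over 2067 bases and held 10.48 to 32.76 in roots, and the strand setting of the counting is not given in the sources used here. Groups did not overlap for 4 of 10 members with La (37.5% of all genes), 3 of 10 with Yb (20.2%) and 2 of 10 between La and Yb (28.7%).

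**Figure D2:**
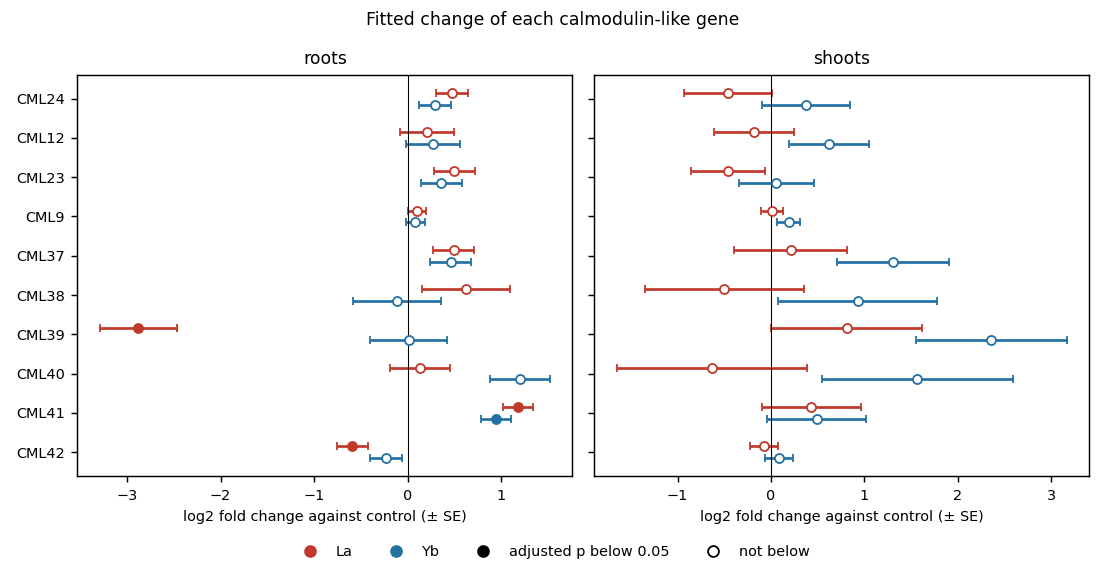
Fitted log2 fold change against control for each member (points, ± SE from limma), roots on the left and shoots on the right, La in red and Yb in blue. Filled points passed the adjusted threshold; they are CML39, CML41 and CML42 with La and CML41 with Yb, all in roots.

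In shoots 0 of 10 members passed in any of the 3 comparisons by limma, edgeR or DESeq2, against 0.0865% of all genes with La, 0.041% with Yb and 0.0091% between the elements. Unadjusted p-values under 0.05 numbered 0, 1 (CML39) and 0 in the same order, against 8.28%, 8.44% and 6.77% of all genes. Members spread widely between replicates: CML38 held 58.34, 39.89 and 313.1 in controls, 62.68, 73.29 and 56.07 with La, and 345.6, 86.72 and 168.9 with Yb. CML40 held 24.72, 7.348 and 152.8 in controls, 21.65, 27.48 and 12.7 with La, and 113.2, 61.67 and 111.5 with Yb. Yb libraries of both genes were above all La libraries, but control 3 lay among the Yb values of CML38 and above those of CML40.

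CML24 in shoots held 571.5, 377.9 and 666.1 in controls, 303.1, 489.6 and 375.6 with La, and 1388, 439.4 and 522.5 with Yb. A single library, Yb 1, was far above the rest. CML37 spanned 16.8 to 94.69 in controls, 45.49 to 46.82 with La and 66.49 to 163.8 with Yb, and CML12 spanned 583.6 to 1688, 731.0 to 960.9 and 991.5 to 1918. CML23 reached 173.2 in Yb 1 and lay between 57.47 and 108.8 in the other 8 libraries. CML9, CML41 and CML42 ranged over 1290 to 2011, 12.6 to 47.86 and 137.4 to 200.1.

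All 10 members had a positive difference for Yb against control in shoots, with a median of 0.55, and all 10 a negative one for La against Yb, with a median of -0.82; over all genes the medians were 0. The comparisons share the Yb libraries, and none of these differences passed. La against Yb did not overlap for 5 of 10 members (CML12, CML37, CML38, CML39 and CML40) and for 14.0% of all genes; against control it was 1 of 10 with La (12.4%) and 1 of 10 with Yb (14.1%). Without Yb 1 the medians were 0.43 (8 of 10 positive) and -0.47 (10 of 10 negative). Without control 2 the Yb median against control was 0.22, and without control 3 it was 1.06. The median of La against control was -0.12 with all libraries, -0.43 without control 2 and 0.32 without control 3.

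Shoot libraries differed together across these genes. Yb 1 was the highest library for 6 of 10 members and above the 9-library mean for all 10, with a median deviation of 1.29 on the log2 scale, while control 2 was the lowest for 6 of 10 (-0.90). A list of 11 other genes that answer touch and wounding quickly had the same highest and lowest library by median deviation. It held TCH4, RHL41 (ZAT12), STZ (ZAT10), WRKY40, WRKY33, ERF6, ERF5, JAZ1, JAZ10, SZF1 and CAF1a. All 11 were highest in Yb 1, at a median deviation of 1.51, and control 2 was at -0.98. The remaining libraries lay between -0.55 and 0.32 in this list and between -0.40 and 0.51 in the members. Their order differed: control 3 was the highest of them in the members and Yb 3 in the list. The summed value of the list was 2244 to 4642 in controls, 2977 to 4318 with La and 4634 to 13880 with Yb. The part of the touch and wound response in the shoot values was not tested.

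**Figure D3:**
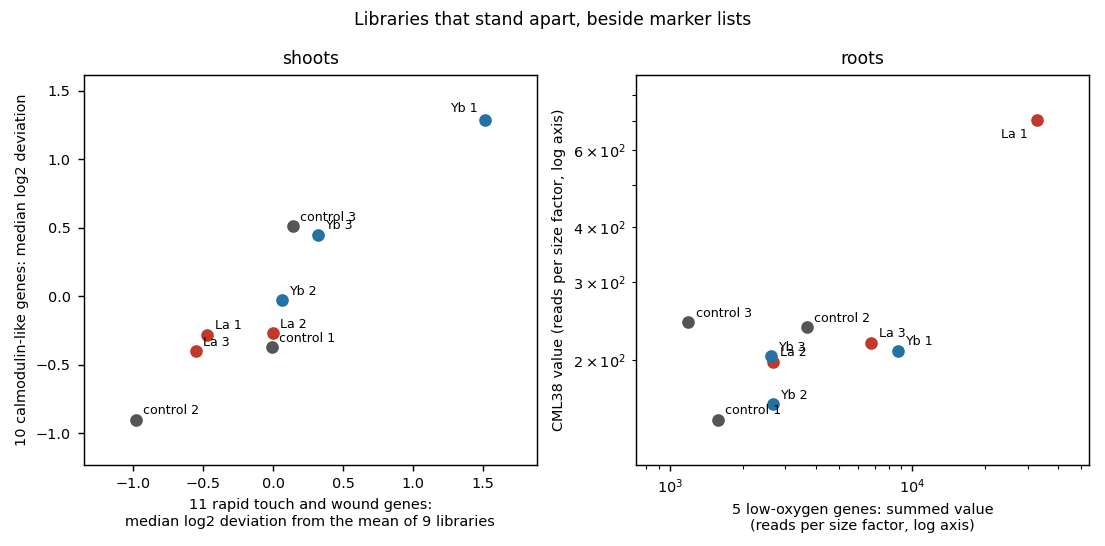
Left, 9 shoot libraries by the median log2 deviation of 11 rapid touch and wound genes (x) and of the 10 calmodulin-like genes (y), both from the mean of the libraries. Right, 9 root libraries by the summed value of 5 low-oxygen genes (x) and the value of CML38 (y), in reads per size factor on log axes; Yb 1 stands apart in shoots and La 1 in roots.

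**Figure D4:**
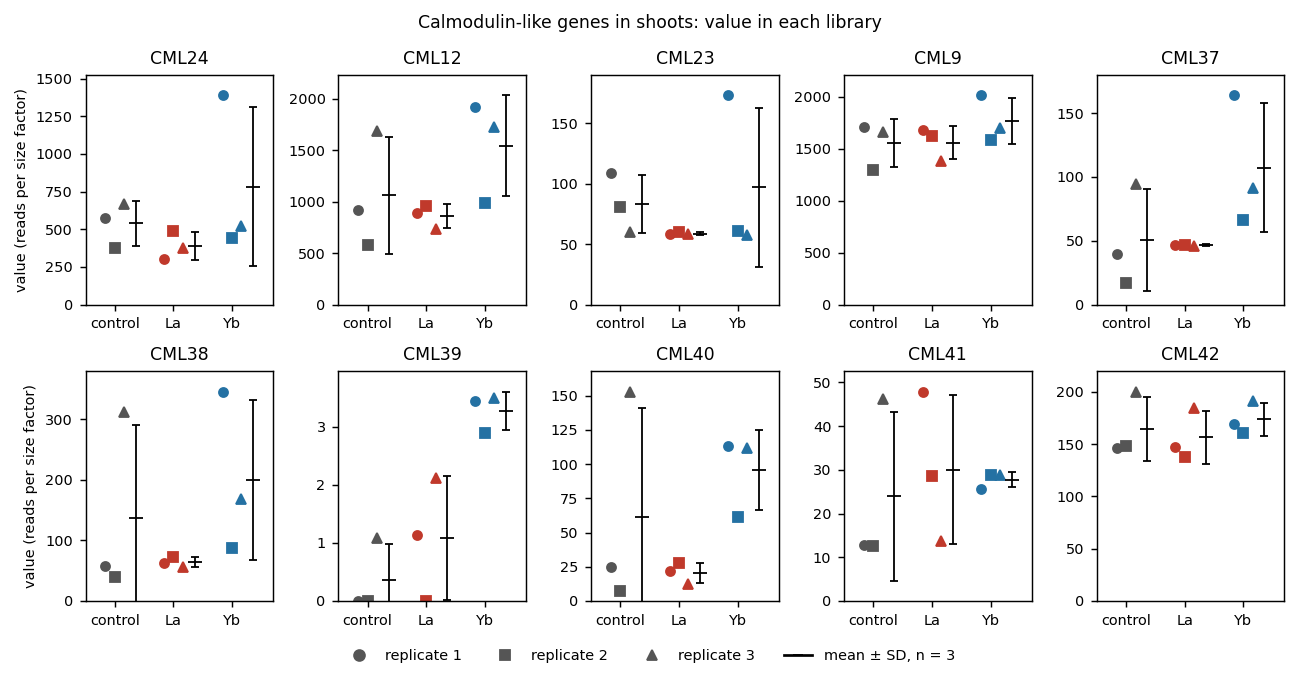
Value of each calmodulin-like gene in each of 9 shoot libraries (reads per size factor, linear axis from 0, scale set per gene), with symbols for replicate and bars for mean ± SD (n = 3, cut off at 0 where they would go below). CML24 and CML23 are highest in Yb 1, at 1388 and 173.2, and CML39 stays under 4.

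CML39 was counted at 0, 0 and 1 read in control shoots, 1, 0 and 2 with La, and 4, 3 and 4 with Yb. Yb libraries were above all others. Summed over libraries, the ratio of Yb to control was 9.49 with a 95% counting interval of 1.38 to 409, and that of La to control was 3.09 (0.248 to 162); these intervals cover counting error only. The Yb difference did not pass (2.36 ± 0.81 on the log2 scale, adjusted p = 0.455), and its size depends on the added 0.5.

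Whether an element acted differently in roots and shoots was tested as an interaction over 20981 genes. Root and shoot libraries were fitted as independent. The labels do not tell if same-numbered root and shoot pools came from the same plants, and no such pairing was modelled. CML39 passed for La (-3.69 ± 0.86, adjusted p = 0.0158), 1 of 10 members against 6.86% of all genes. Control and La shoots held 0 to 2 reads of CML39 a library. The call was lost, with the difference as large or larger, when 0.1 was added in place of 0.5 (-4.47, adjusted p = 0.0823), in edgeR (-4.30, adjusted p = 0.121) and in DESeq2 (-4.46, adjusted p = 0.0508); the cause was not tested. For Yb 0 of 10 passed in limma, edgeR or DESeq2, where 0.31% of all genes passed the adjusted threshold in limma. Without adjustment 1 of 10 was under 0.05 in limma (CML39, -2.35 ± 0.86, adjusted p = 0.276). The share of all genes under 0.05 without adjustment is not given here, so that count has no background beside it. CML41, which passed with both elements in roots, had interactions of 0.75 ± 0.61 for La (adjusted p = 0.523) and 0.46 ± 0.61 for Yb (adjusted p = 0.816), so a difference between organs was not shown.

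Other calcium sensor families were read as gene lists, for context. Among 7 calmodulins, CAM2 (also known as TCH1, from 2876 ± 155 to 1751 ± 151) and CAM7 fell with La in roots, by differences of -0.72 ± 0.13 (adjusted p = 0.00565) and -0.36 ± 0.10 (adjusted p = 0.0369), and 0 rose; the CAM7 call was lost without any control or any La library. Calmodulin coding sequences are up to 85.6% identical, so reads may be shared between them. Of 33 tested among 40 other CML genes, 5 rose and 4 fell with La in roots, where 9.41% of all genes rose and 9.51% fell. CML11 rose from 739.1 ± 85.3 in controls to 1764 ± 186 with La (1.26 ± 0.11, adjusted p = 0.000309) and to 1109 ± 60.7 with Yb (0.59 ± 0.11, adjusted p = 0.0344), and La exceeded Yb by 0.67 ± 0.11 (adjusted p = 0.0125). AT1G21550 rose with La (1.20 ± 0.18, adjusted p = 0.00258) and Yb (0.96 ± 0.18, adjusted p = 0.0387). Both Yb calls were lost without one or more single libraries, CML11 in 4 of 9 refits and AT1G21550 in 7 of 9.

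The largest falls among the other CML genes were in AGD11 (CML3) and AT1G05990 (RHS1, a root hair gene). AGD11 held 72.97 to 122 in control roots, 0 to 2.11 with La and 19.86 to 153.6 with Yb. AT1G05990 held 19.92 to 42.15, 0 to 0.9599 and 3.971 to 43.0 in the same order. Fitted La differences of -6.16 ± 0.83 (adjusted p = 0.00232) and -4.94 ± 0.78 (adjusted p = 0.00303) rest on 0 to 2 reads a La library, so their size depends on the added 0.5. Both also passed between La and Yb (-5.06 ± 0.83, adjusted p = 0.0155, and -3.94 ± 0.78, adjusted p = 0.0225), though AGD11 lost the call without La 2 or La 3, and AT1G05990 without La 2, La 3, Yb 1 or Yb 3. The root hair marker EXPA7 also fell with La (-4.94 ± 0.99, adjusted p = 0.0141), as did CASP1 of the Casparian strip (-2.0 ± 0.51, adjusted p = 0.0345, kept in 3 of 9 refits), while IRT1, the iron transporter, rose (1.34 ± 0.23, adjusted p = 0.00556). The part of root hair transcripts in the value of CML39 was not tested.

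Of 9 tested calcineurin B-like sensors, which pass calcium signals to protein kinases, CBL10 (-0.87 ± 0.19, adjusted p = 0.0111) and CBL9 (-0.51 ± 0.12, adjusted p = 0.0178) fell with La in roots and 0 rose. Among 6 calmodulin-binding transcription activators, AT3G16940 fell (-0.32 ± 0.08, adjusted p = 0.02). The CBL9 call was lost without control 2 or La 2, and that of AT3G16940 without control 3, La 2 or La 3. In the rapid touch and wound list, RHL41 (1.31 ± 0.14, adjusted p = 0.000719), ERF5 and STZ rose with La in roots, and WRKY40 (-0.74 ± 0.16, adjusted p = 0.0121) and CAF1a fell, so 5 of 11 passed, 3 higher and 2 lower. Each of these list counts stands beside 18.9% of all genes past the threshold in the same comparison, and nothing particular to a list is read from them. ERF5 and STZ each lost the call in 4 of 9 refits. With Yb in roots 2 of 33 other CML genes passed, and 0 genes of the calmodulin, calcineurin B-like, activator and touch lists by limma or edgeR. DESeq2 called 1 touch gene. Over all genes 1.24% passed in that comparison in limma. An unadjusted p under 0.05 in limma was held by 0 of 7, 3 of 9, 1 of 6 and 2 of 11 genes of those lists. The share of all genes under that rule is not given here, so nothing particular to a list is read from these counts. In shoots each of these lists had 0 called genes by limma, edgeR or DESeq2, with unadjusted p-values under 0.05 for at most 5 genes of a list.

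**Figure D5:**
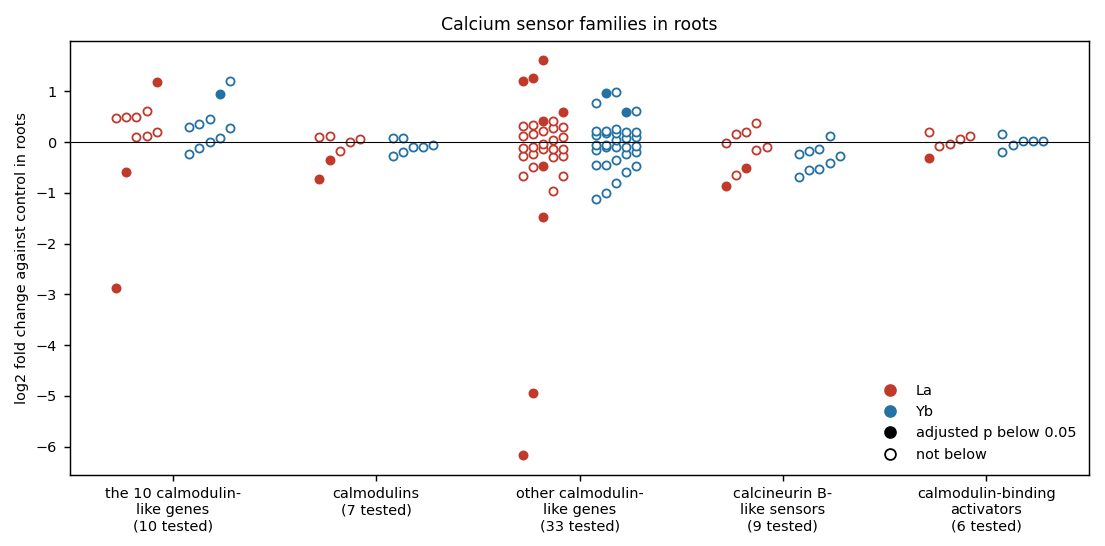
Log2 fold change against control in roots for each tested gene of 5 calcium sensor lists, La in red and Yb in blue; filled points passed the adjusted threshold. With La the calls spread from -6.16 for AGD11 upward, and among the 10 members they lie at -2.88, -0.59 and 1.18.

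The genes with the most similar set of 4 differences (La and Yb, roots and shoots), ranked by root mean square difference among 17600 genes tested in both organs with a mean value of at least 10 in each, were AAE18 (0.01) and AGP9 (0.03) for CML42, and GAD4 (0.08) and AT4G36430 (0.10) for CML41. Among the genes compared, FMO1 was nearest to CML39 at 0.73, followed by AT4G04760 at 0.75. In shoots CML39 itself had means of 0.3587 in controls, 1.085 with La and 3.268 with Yb, below the limit of 10. Genes as low in shoots as CML39 were therefore not compared. Its shoot differences rest on 0 to 4 reads a library, and their size depends on the constant added before the log. Whether CML39 has a close match cannot be read from this ranking. All these rankings are descriptions over 4 differences and carry no test.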

How the data were processed

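Roots and shoots of 3 treatments with 3 replicates each were sequenced as stranded polyA libraries. Per the submitters' processing notes, Trimmomatic 0.36.1, TopHat2 2.1.1 and HTSeq 0.6.1p1 were used with TAIR10; no source used here gives the strand setting of the counting. What the authors deposited is a signal for each gene, reads divided by a size factor per library within one organ. The deposit is named after another unit, RPKM, but 100% of values are whole multiples of one step per library within 0.001. Genes with a value of at least 1 in at least 3 libraries of an organ were tested with limma 3.58.1 (R 4.3.3) on log2(value + 0.5), with Benjamini-Hochberg adjustment over all genes and a threshold of 0.05; all 10 members passed that filter in both organs. The steps were tested on simulated data, with changes placed only in genes well above the floor and the same dispersion for all genes. Changes at levels as low as CML39 in shoots, and spreads as wide as those of CML38 and CML40 in shoots, were not simulated. Alternatives were edgeR 4.0.16 and DESeq2 1.42.0 on recovered reads, other added constants, filters, scalings and omitted libraries. Gene names and sequences come from RefSeq TAIR10.1. The genes named are all members, up to 4 per list and comparison by adjusted p, and neighbours; CAF1a was added after its value was seen. The members and lists were chosen with earlier results of these data known.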

Additional observations from a re-analysis of the deposited data

Results flagged for a closer look

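For 6 calcium sensor genes the La effect in roots differed from that in shoots by the interaction test of limma, with Benjamini-Hochberg adjustment over all genes tested in both organs. They were 1 of 10 members, 4 of 28 other CML genes tested and 1 of 8 calcineurin B-like sensors tested, beside 6.86% of all genes. CML39 differed by -3.69 ± 0.86 on the log2 scale (adjusted p = 0.0158). AT1G62820 differed by -0.63 ± 0.13 (adjusted p = 0.0102) and CBL9 by -0.63 ± 0.16 (adjusted p = 0.0236). The centrin CEN2 at locus AT3G50360 differed by 0.47 ± 0.10 (adjusted p = 0.0117), AT1G21550 by 1.26 ± 0.35 (adjusted p = 0.0363) and CML11 by 1.45 ± 0.40 (adjusted p = 0.0391). Over 18 refits that left out 1 library each, CML39, AT1G62820 and CEN2 kept the call in 18, CBL9 in 13, CML11 in 12 and AT1G21550 in 10. The call of CML11 was also lost under library weights and under the replicate block, and that of AT1G21550 under the replicate block; the CML39 call was lost with 0.1 added in place of 0.5, in edgeR and in DESeq2.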

How the results depend on the processing

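The number of members past the threshold for La against control in roots was 3, and 2 to 4 when single libraries were left out. CML24 was added in DESeq2, giving 4 (adjusted p = 0.0465), and with the compared pair of groups alone (adjusted p = 0.0425 in limma). For Yb in roots the number was 1, with 2 in DESeq2, 0 with the compared pair of groups alone and 0 to 1 over omitted libraries. La against Yb in roots gave 1, with 2 under library weights and 2 in DESeq2 (CML40 added). La against Yb in shoots gave 0, and 1 (CML40) with the compared pair of groups alone. The La interaction gave 1, and 0 with 0.1 added, with a value of at least 5 in 3 libraries (where CML39 in shoots was not tested), in edgeR and in DESeq2. CML39 and CML41 kept their La calls in roots under every alternative run. Of the other lists, DESeq2 moved the calcineurin B-like count for La in roots from 2 to 4, and between La and Yb in roots it moved the other CML genes from 5 to 8 and the touch list from 2 to 4. Counts over all 22729 genes moved too. For La in roots they went from 2139 higher and 2161 lower in limma to 2320 and 2496 in DESeq2. Between La and Yb in roots they went from 600 higher and 866 lower in limma to 1027 and 1502 in DESeq2. Library weights gave 1207 and 1537 there. Nothing particular to the members or lists is read from these moves, and their causes were not tested. Replicate numbers were shared between groups, and the labels do not tell if they pair samples. Within an organ, deviations of same-numbered libraries correlated from -0.125 to 0.182 and those of differently numbered ones from -0.22 to 0.156. Such weak, overlapping values cannot settle whether samples are paired, and the main fit used no pairing. With a replicate block in limma, La in roots called 2 members, CML42 being lost (adjusted p = 0.0748).

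Differences that changed sign were all uncalled. For CML39 with Yb in roots quantile normalization gave -0.01, edgeR -0.08 and DESeq2 -0.09. Library weights gave -0.16 for CML37 between La and Yb in roots, -0.02 for CML9 with La in shoots and -0.15 for CML23 with Yb in shoots. CML37 with La in shoots was -0.11 in edgeR and -0.12 in DESeq2, and CML41 between La and Yb in shoots was 0.10 and 0.11. With single libraries left out, roots gave -0.16 to 0.31 for CML40 with La, and with Yb -0.34 to 0.02 for CML38 and -0.38 to 0.31 for CML39. Between La and Yb in roots the ranges were -0.31 to 0.13 for CML12, -0.12 to 0.34 for CML23, -0.04 to 0.09 for CML9 and -0.10 to 0.17 for CML37. With La in shoots they were -0.54 to 0.23 for CML12, -0.12 to 0.09 for CML9, -0.40 to 0.83 for CML37, -1.08 to 0.40 for CML38, -1.63 to 0.52 for CML40 and -0.20 to 0.08 for CML42. With Yb in shoots they were -0.13 to 0.70 for CML24 and -0.45 to 0.34 for CML23, between La and Yb -0.47 to 0.41 for CML41, and for the Yb interaction of CML41 -0.15 to 0.77. Depth limits CML39 in shoots, at 0 to 4 reads a library.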

Other observations

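Several members adjoin other EF-hand genes. CAM1 lies 4846 bases from CML24 and CAM4 lies 2719 bases from CML23, on the same strand as each. With La in roots CAM1 differed from control by 0.11 ± 0.09 on the log2 scale (adjusted p = 0.423, limma) and CAM4 by 0.13 ± 0.08 (adjusted p = 0.298), and neither passed in shoots. AT2G41090, 37 bases from CML12, differed by 0.31 ± 0.25 with La (adjusted p = 0.44) and 0.61 ± 0.25 with Yb (adjusted p = 0.261) in roots. Genes that overlap CML24 and CML12 on the other strand were low in roots, with AT5G37760 at 0 to 6.115 and AT2G41105 at 0 to 13.44 reads per size factor.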
